A study of Mus musculus with 4 samples.

Results

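Luminal progenitor-like nuclei were compared with mature luminal-like nuclei of the adult mouse mammary gland by single-nucleus ATAC-seq, in which the transposase Tn5 cuts and tags open chromatin and a pair of barcodes marks each nucleus. Nuclei of the 2 adult libraries were sided by the class number in the authors' deposited table of motif scores. Classes 3 and 7 formed the luminal progenitor-like side ("progenitor-like" below) and classes 2 and 11 the mature luminal-like side ("mature-like"). This gave 3802 of the 7846 nuclei in the series, 1726 progenitor-like and 2076 mature-like. Both sides came from the same libraries, so each library holds its own pair of sides. The mice were wild-type CD1, an outbred strain, at 8 weeks of age, and the labels name no treatment and no altered allele. The cells had been sorted from mammary tissue as EpCAM+ and Lin-, that is, as epithelial cells free of blood and vessel lineages. The labels call the libraries biological replicates and do not say how many animals went into each. The series also holds 2 fetal libraries of embryonic day 18, which enter a single description near the end. Its title places the work in the study of regulators of cell states and of lineage relations in mammary development.

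The luminal layer of the adult mammary duct holds cells of contrasting roles. Luminal progenitors lack the estrogen and progesterone receptors, carry the receptor tyrosine kinase Kit and the ETS-family factor Elf5, and give rise to the milk-secreting alveolar cells of pregnancy. Mature luminal cells sense estrogen, progesterone and prolactin and pass these signals on to their neighbours through secreted ligands such as amphiregulin (Areg), RANKL (Tnfsf11) and Wnt4, with the pioneer factor Foxa1 opening chromatin for the estrogen receptor.

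In adult replicate 1 the progenitor-like side held 921 nuclei and 4693222 reads and the mature-like side 1002 nuclei and 5744170 reads. In adult replicate 2 the numbers were 805 nuclei with 5142496 reads and 1074 nuclei with 8181983 reads. Median reads per nucleus were 4204 and 5232 on the progenitor-like side and 4643.5 and 6160 on the mature-like side, so the mature-like side was the deeper of the pair in both libraries. No barcode was shared between libraries, and a barcode pair held by more than 1 nucleus could not be told from a single nucleus. The mix of classes differed between the libraries: class 3 made up 26.7% and 42.6% of the progenitor-like nuclei, and class 2 made up 80.3% and 66.5% of the mature-like nuclei. Promoter regions took 25.5% and 23.7% of progenitor-like reads against 24.7% and 21.5% of mature-like reads.

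The classes were formed by the authors from these same nuclei by a method not given in the sources used here. A difference between the sides is therefore built into the comparison. A call below is made on both libraries fitted together and does not require a difference in each library alone. Nor does it say that the sides were found to differ on independent data. The side names were checked against marker genes by counting reads over each gene span with 2000 bases on either side. All 7 progenitor markers (Kit, Elf5, Aldh1a3, Cd14, Csn3, Ltf, Itga2) were called higher on the progenitor-like side and all 9 mature markers (Esr1, Pgr, Prlr, Foxa1, Ly6a, Cited1, Areg, Tnfsf11, Wnt4) on the mature-like side. Their summed level was 625 and 588 CPM (reads over the genes scaled to the total of each sum over gene spans) against 200 and 211 CPM for the progenitor markers, and 519 and 553 CPM against 1329 and 1402 CPM for the mature markers, progenitor-like first. The sides did not overlap for either list. With 2 sums per side, they also did not overlap at genes that were not called, such as Epcam and Calca. Over all gene spans, 16.1% were called higher on the progenitor-like and 16.5% on the mature-like side. Not every marker held in other fits: DESeq2 lost Cd14 (adjusted p = 0.0779), Ltf (0.331), Ly6a (0.189) and Wnt4 (0.118). With classes 3 and 11 alone, Aldh1a3 (edgeR adjusted p = 0.322), Ltf (0.492), Ly6a (0.682), Cited1 (0.415) and Wnt4 (0.287) were lost. These lists were chosen with earlier results of these reads known, so the counts check the labels and are not independent evidence.

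Distal accessibility differed widely. Of 63299 distal regions of 1000 bases with enough reads, 28200 were called (44.6%) in edgeR's quasi-likelihood fit with each library as a block at a Benjamini-Hochberg adjusted p under 0.05. The progenitor-like side was higher in 12987 regions (20.5%) and the mature-like side in 15213 (24.0%), and the median absolute log2 fold change of the called regions was 2.80. Of 15226 promoter regions, 2370 were called (15.6%), 1255 higher in progenitor-like (8.24%) and 1115 higher in mature-like nuclei (7.32%), with a median absolute log2 fold change of 1.46. No read of the other side fell in 2220 of the distal regions called higher in mature-like nuclei and in 484 of those called higher in progenitor-like nuclei. The read minimum was set over all sums together, so these regions passed it through the reads of 1 side. The mature-like side was also the deeper, so these counts are not compared. The fit has 1 residual degree of freedom, and borrows its spread from all features. DESeq2 called 778 promoter regions.

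The distal region called with the smallest p on the progenitor-like side lay on chromosome 4 from 97465499 to 97466498 (mm10). It was outside any RefSeq protein-coding gene, the only genes searched, and 111568 bases from Nfia, which encodes a nuclear factor I protein. It held 381 and 412 reads in progenitor-like sums and 5 and 4 reads in mature-like sums. Its log2 difference was 7.00 with an SE of 0.256 (edgeR adjusted p = 2.67e-13), with levels of 236 ± 9.02 CPM and 1.84 ± 0.657 CPM (SD, n = 2). With so few mature-like reads this SE lies below counting error. The Nfia gene span itself was not called, at a log2 value of -0.11 (edgeR adjusted p = 0.284), so the region and the gene nearest to it did not go together. A region on chromosome 1 from 64301021, 178676 bases from Klf7, a zinc-finger factor gene, held 268 and 291 reads against 7 and 6. The other named regions on this side were on chromosome 14 from 105588236 (278938 bases from Ndfip2), chromosome 8 from 126912734 (16931 bases from Tomm20), chromosome 6 from 142759437 inside Cmas, and chromosome 13 from 81086649 (7420 bases from Adgrv1). Their log2 fold changes lay between 3.27 and 6.35, with 144 to 377 reads in progenitor-like sums and 2 to 72 in mature-like sums, and sides that do not overlap were part of the rule for naming regions.

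On the mature-like side the leading distal region lay on chromosome 7 from 47108319 to 47109318, inside Ptpn5, which encodes a tyrosine phosphatase. It held 388 and 494 reads in mature-like sums and 1 and 6 in progenitor-like sums, a log2 difference of -6.35 with an SE of 0.325 (edgeR adjusted p = 8.99e-11). That SE likewise lies below counting error. Inside Plrg1, the stretch of chromosome 3 from 83059025 to 83060024 held 207 and 290 mature-like reads and no progenitor-like read. Against 3 reads over both progenitor-like sums it was 110.0-fold lower there. That fold takes the listed ends of a fragment as separate reads. With fragments as the unit it would be smaller, so it is not a firm lower limit. Regions inside Padi2, which encodes a peptidylarginine deiminase, and Dlgap1, and one 43423 bases from Fermt1, had log2 fold changes of -5.15, -5.70 and -6.42, with 239 to 371 mature-like reads against 2 to 9. A region inside Sfi1 on chromosome 11 from 3160846 held 884 and 1725 mature-like reads against 112 and 82. That stretch of the mouse genome is known for repeated sequence, so its value is uncertain.

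The promoter call with the smallest p was at Lcn2 on the progenitor-like side, followed by regions on the mature-like side near Inf2, in Cbln3 and near Unc5b. The region at Lcn2, which encodes the iron-scavenging defence protein lipocalin-2, held 251 and 231 reads in progenitor-like and 8 and 5 in mature-like sums, a log2 difference of 5.58 with an SE of 0.288 (edgeR adjusted p = 1.13e-78). The region at Kit held 130 and 148 reads against 6 and 5 (log2 fold change 5.04, SE 0.362, edgeR adjusted p = 1.88e-40). At so few mature-like reads the SEs at Lcn2 and Kit lie below counting error. Wfdc18, a gene of the whey acidic protein family, had 114 and 125 reads against 0 and 2, and Chil1, for a secreted chitinase-like protein, 162 and 101 against 2 and 4. Lama4, for a laminin chain, and Car2, for a carbonic anhydrase, had log2 fold changes of 3.82 and 3.28. The rule for naming these 6 promoters required that the sides not overlap. The 6 leading promoter regions on the mature-like side were not at the end of a listed protein-coding gene. They lay 190 bases from Inf2 (a formin), 910 bases from Unc5b (a netrin receptor), 585 bases from Pxylp1, and inside Cbln3, Psd3 and Rnf224. The Inf2 region held 221 and 288 mature-like reads against 11 and 13 (log2 fold change -3.98, SE 0.271, edgeR adjusted p = 1.48e-44). This SE too lies below counting error. The Pxylp1 and Rnf224 regions held 145 and 203 reads against 3 and 2, and 121 and 162 against 2 and 2. The Unc5b region held 162 and 202 reads against 4 and 0, and its log2 value was -5.05 in replicate 1 and -10.31 in replicate 2 (promoter region 10_60832491), so its fold is not read. The other 5 had log2 fold changes from -5.65 to -3.22, and the rule for naming all 6 required that the sides not overlap.

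Start-site windows of 4 genes are shown because their reads differ between the sides at genes described here, from a wide contrast (Kit, Lcn2) to a modest one (Areg, Foxa1). They run 5′ to 3′ from 250 bases before to 50 bases after a RefSeq start (GRCm38.p6). That of Kit is at chr5:75574737-75575036 on the plus strand. That of Lcn2 is at chr2:32387690-32387989 on the minus strand. That of Areg is at chr5:91139349-91139648 on the plus strand. That of Foxa1 is at chr12:57546062-57546361 on the minus strand.
Kit: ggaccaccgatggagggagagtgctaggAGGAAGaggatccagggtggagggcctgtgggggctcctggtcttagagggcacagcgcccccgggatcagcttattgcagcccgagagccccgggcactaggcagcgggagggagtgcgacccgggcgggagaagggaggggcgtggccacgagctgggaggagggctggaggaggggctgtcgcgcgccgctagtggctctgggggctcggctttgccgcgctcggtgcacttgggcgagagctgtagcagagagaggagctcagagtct
Lcn2: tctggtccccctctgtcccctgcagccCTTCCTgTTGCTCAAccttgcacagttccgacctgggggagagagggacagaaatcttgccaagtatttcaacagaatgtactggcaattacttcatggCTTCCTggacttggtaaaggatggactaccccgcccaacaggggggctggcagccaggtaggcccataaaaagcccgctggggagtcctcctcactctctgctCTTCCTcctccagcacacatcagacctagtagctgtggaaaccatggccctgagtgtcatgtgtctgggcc
Areg: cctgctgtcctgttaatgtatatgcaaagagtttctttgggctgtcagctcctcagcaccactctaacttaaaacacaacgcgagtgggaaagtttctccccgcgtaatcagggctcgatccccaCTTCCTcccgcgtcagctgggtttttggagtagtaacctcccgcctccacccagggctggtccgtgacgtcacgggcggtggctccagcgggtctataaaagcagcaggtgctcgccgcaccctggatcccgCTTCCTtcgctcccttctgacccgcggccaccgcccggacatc
Foxa1: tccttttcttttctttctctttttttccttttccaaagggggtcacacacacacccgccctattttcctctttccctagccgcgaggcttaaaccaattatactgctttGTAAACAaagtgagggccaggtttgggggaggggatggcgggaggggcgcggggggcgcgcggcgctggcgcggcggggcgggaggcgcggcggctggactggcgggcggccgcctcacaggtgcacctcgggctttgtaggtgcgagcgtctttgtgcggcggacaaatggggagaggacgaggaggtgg
Capitals mark matches to short motif cores, searched on both strands: ETS (AGGAAG), FOX (TGTTTNC), C/EBP (TTGCNNAA), NFI (TGGC and GCCA with 5 bases between), SOX (ACAATG), AP-1 (TGANTCA), NF-kB (GGG and TTTCC with 2 bases between) and the estrogen response element (GGTCA and TGACC with 3 bases between). No base of these windows belongs to 2 matches. The Kit and Lcn2 windows hold ETS cores, 1 in Kit and 3 in Lcn2, and the Lcn2 window also holds a C/EBP core. The Areg window holds 2 ETS cores, and the Foxa1 window a FOX core. Reads over the Kit window were 96 and 102 against 4 and 3, and over the Lcn2 window 139 and 129 against 3 and 4, progenitor-like first. Over the Areg window they were 18 and 21 against 76 and 101, and over the Foxa1 window 27 and 33 against 65 and 117. The windows of Kit and Lcn2 thus held few reads in mature-like nuclei, while those of Areg and Foxa1 held reads on both sides.

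Across RefSeq windows, AP-1 cores showed the widest gap between the promoter groups. They stood in 14.2% of the 437 windows in regions higher in mature-like nuclei, in 5.98% of the 669 windows in regions higher in progenitor-like nuclei, in 4.24% of those in regions not called, in 4.80% of those in all tested regions and in 7.81% of all 32817 windows. ETS cores were in 36.2% of windows in progenitor-higher regions, 30.2% in mature-higher regions, 30.4% in regions not called, 30.8% in all tested regions and 35.4% of all windows. In the same order of these 5 groups, FOX cores were in 14.9%, 18.1%, 13.0%, 13.4% and 20.5%. C/EBP cores were in 8.82%, 8.92%, 6.98%, 7.19% and 10.8%, and SOX cores in 7.92%, 8.24%, 6.10%, 6.32% and 12.6%. NFI cores were in 1.64%, 0.686%, 0.814%, 0.864% and 0.808%, and NF-kB cores in 2.09%, 1.60%, 1.59%, 1.63% and 1.63%. The estrogen response element was in none of the windows in tested regions and in 0.0701% of all windows. A match is a string of letters and not a bound site, windows of 1 gene can share bases, and these shares were not tested.

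Over whole gene spans, 5735 of 17629 genes were called (32.5%), 2835 higher in progenitor-like (16.1%) and 2900 in mature-like nuclei (16.5%). DESeq2 called 2390. Of 17 tested progenitor genes, 16 were higher in progenitor-like nuclei, with a median log2 fold change of 1.56 against -0.00 over all genes tested. Kit held 650 and 719 reads against 27 and 51, a level of 183 ± 4.99 CPM against 7.20 ± 1.75 CPM (SD, n = 2), 25.4-fold, with a log2 difference of 4.64 with an SE of 0.163 (edgeR adjusted p = 1.14e-170). Lcn2 held 689 and 535 reads against 24 and 11 (log2 5.59, SE 0.193). Counting error is larger than the SE at Lcn2 and slightly larger than that at Kit. Elf5, the factor that drives alveolar fate, held 281 and 324 reads against 145 and 195 (log2 1.33, SE 0.155, edgeR adjusted p = 3.05e-16), a much smaller contrast than that of Kit. Of the milk protein genes, Csn3 (kappa-casein) held 96 and 160 reads against 12 and 38 (log2 2.93), Csn1s1 59 and 41 against 6 and 22, and Lalba (alpha-lactalbumin) 40 and 46 against 0 and 2. Wap, the whey acidic protein gene, was not called at 21 and 28 reads against 14 and 38 (edgeR adjusted p = 0.474), and Csn2 had too few reads to test. Of these 4 tested milk protein genes, 3 were called higher in progenitor-like nuclei. Aldh1a3, for a retinaldehyde dehydrogenase, and Cd14, for the endotoxin co-receptor, were higher by log2 fold changes of 0.79 and 0.77. Ltf, for lactoferrin, was the least firm call of the list, at log2 values of 1.49 in replicate 1 and 0.42 in replicate 2, and it was lost without the library block (edgeR adjusted p = 0.0823).

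**Figure D1:**
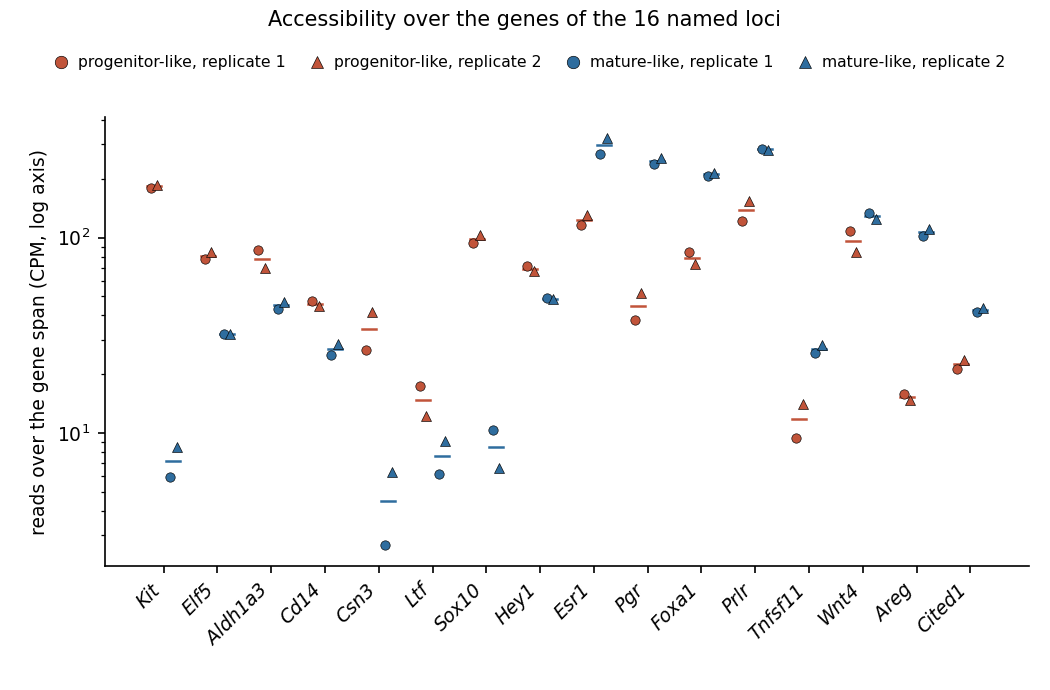
Reads over the span of each of 16 genes in CPM on a log axis, 1 point per library and side (circles, replicate 1; triangles, replicate 2) with a line at the mean of each side. The gap is widest at Kit, at 183 against 7.20 CPM.

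The share of nuclei with at least 1 read over a gene was counted beside the summed reads. A read over the Kit span was found in 27.6% and 31.4% of progenitor-like nuclei (254 of 921 and 253 of 805) and in 1.30% and 2.14% of mature-like nuclei (13 of 1002 and 23 of 1074). In adult basal-like nuclei (classes 1 and 8), which are not known for Kit, the shares were 2.39% and 2.66% at median depths of 3926 and 4532 reads, so the mature-like share was no higher than this background. With every nucleus thinned to 2000 reads, and none below that number, the expected Kit shares were 18.7% and 18.6% against 0.660% and 0.915%. A read over Pgr was found in 36.8% and 42.5% of mature-like, 6.84% and 10.8% of progenitor-like and 7.76% and 11.0% of basal-like nuclei. After thinning the mature-like shares were 23.3% and 24.7%, against 4.55% and 5.89% in progenitor-like nuclei. For both genes the share on the lower side was below that in basal-like nuclei of the same library. For Kit the exact 95% binomial intervals were 24.7% to 30.6% and 28.2% to 34.8% on the progenitor-like side, covering counting error only.

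Of 16 mature luminal genes, 14 were higher in mature-like nuclei and none in progenitor-like nuclei, with a median log2 fold change of -1.06, beside 16.5% of all gene spans higher in mature-like and 16.1% in progenitor-like nuclei. Pgr, the progesterone receptor gene, held 1084 and 1538 reads in mature-like sums against 137 and 200 (log2 -2.46, SE 0.118, edgeR adjusted p = 1.58e-92). Areg held 463 and 672 reads against 57 and 57 (log2 -2.80, SE 0.170, edgeR adjusted p = 8.64e-58), and Greb1, an estrogen-responsive gene, 505 and 785 against 90 and 119 (log2 -2.11). Foxa1, at 206 and 215 CPM against 84.3 and 73.5 CPM, had a log2 value of -1.42, and Esr1, the estrogen receptor gene, one of -1.26. Prlr (prolactin receptor), Tbx3 (a T-box repressor), Spdef (an ETS-family factor of secretory cells) and Stc2 (stanniocalcin-2) had log2 values between -1.09 and -0.99. Gata3, the master factor of luminal cells as a whole, was at 357 and 383 CPM in progenitor-like and 373 and 400 CPM in mature-like nuclei, ranges that overlapped (log2 -0.07, edgeR adjusted p = 0.599). Calca, for calcitonin, was not called either (log2 -0.67, edgeR adjusted p = 0.136). Among 10 genes of both luminal groups, the keratin genes Krt8 (log2 0.42) and Krt18 (0.44) and the ETS gene Ehf (1.32) were higher in progenitor-like nuclei, and 7 were not called, among them Epcam (log2 0.23, edgeR adjusted p = 0.077), the gene of the sorting antigen. DESeq2 did not call Krt18 (adjusted p = 0.203), and it was lost in class 7 against class 2 (edgeR adjusted p = 0.0689). With classes 3 and 11 alone neither keratin gene was called (edgeR adjusted p = 0.0517 for Krt8 and 0.129 for Krt18).

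**Figure D2:**
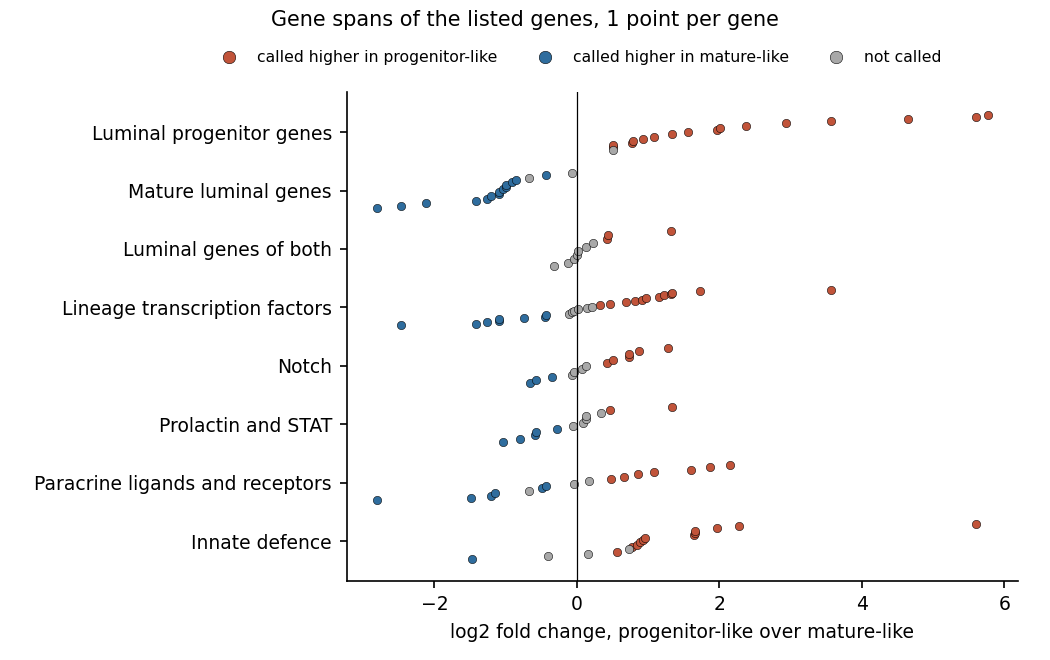
Log2 fold change over the gene span, progenitor-like over mature-like, 1 point per tested gene of each list, coloured by call. The called progenitor genes all lie right of 0 and the called mature genes all lie left of it, while the Notch, prolactin and paracrine lists hold calls on both sides of 0.

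Genes named for the smallest p rather than from a list included signalling, matrix and transport genes. Thbs1, for the matrix protein thrombospondin-1, held 969 and 1516 reads in progenitor-like sums against 95 and 199 (log2 3.62, SE 0.119, edgeR adjusted p = 4.05e-194). The transcription factor gene Sox10 held 339 and 398 reads against 47 and 40 (log2 3.57). Xdh, for xanthine oxidoreductase, an enzyme that also shapes milk fat globules, had a log2 fold change of 2.55, and Ntn1, for the secreted guidance protein netrin-1, one of 2.43. Rftn1 (2.48), Efhd2 (2.08), 1700025G04Rik (2.04), Plet1 (1.94), Tgfb2 (1.91, a growth factor), Nfix (1.73), Ldlrad4 (1.61) and Pde4b (1.45, a cyclic AMP phosphodiesterase) were the others besides Kit, Lcn2 and Egfr. The Nfix window also covers Lyl1 and that of Ldlrad4 covers Fam210a, and reads there cannot be split between the genes. On the mature-like side Ptpn5 held 983 and 1232 reads against 46 and 63 (log2 -3.85, SE 0.147, edgeR adjusted p = 6.94e-145). Abcc8, for the sulfonylurea receptor, had a log2 value of -3.22 with 776 and 1026 reads against 61 and 76, and Sgsm1 one of -3.05. Cyp3a57 had the steepest value, -3.98, but belongs to a cytochrome P450 gene cluster whose members are alike, so reads may be shared with them. Trpc6 (-2.24, a cation channel), Samd5 (-1.87), Tlcd4 (-1.84), Slc7a2 (-1.83, an amino acid transporter), Padi2 (-1.83), Gipc2 (-1.75), Cdh13 (-1.55, a cadherin), Meis1 (-1.48, a homeobox factor) and Nckap5 (-1.39, whose window covers Lypd1) completed the list with Pgr and Areg. At none of these 30 genes did the sides overlap, as the rule for naming them required.

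Ligands and receptors of paracrine signalling were split between the sides. Of 16 listed genes, 7 were higher in progenitor-like nuclei, 6 in mature-like nuclei and 3 were not called, where 16.1% and 16.5% of all gene spans were called in these directions. The ligand gene Areg was higher in mature-like nuclei, while the gene of its receptor, Egfr, held 1151 and 1271 reads in progenitor-like sums against 307 and 674 (log2 1.87, SE 0.100, edgeR adjusted p = 9.10e-74). The RANKL gene Tnfsf11 held 116 and 171 reads in mature-like sums against 34 and 54 (log2 -1.21), and its receptor gene Tnfrsf11a 360 and 323 in progenitor-like sums against 135 and 183 (log2 1.60). Both ligand genes thus stood higher on the mature-like side and both receptor genes on the progenitor-like side. Of the Wnt genes, Wnt5a (log2 -1.16) and Wnt4 (-0.43) were higher in mature-like nuclei. Rspo1, for an R-spondin that amplifies Wnt signals, held 261 and 225 reads in progenitor-like sums against 62 and 93 (log2 2.15), and its receptor gene Lgr4 had a log2 fold change of 0.48. The fibroblast growth factor receptor gene Fgfr2 was higher in mature-like nuclei (log2 -1.49, SE 0.0992), as was Erbb2 (-0.49). Igf1r (0.86), the insulin-like growth factor receptor gene, and Igfbp5 (1.08), for a binding protein of that factor, were higher in progenitor-like nuclei. Lgr5 (0.66) differed in size between the libraries, at 0.31 and 0.95. DESeq2 lost Lgr5 (adjusted p = 0.155), Erbb2 (0.0754) and Wnt4 (0.118), and class 7 against class 2 lost Lgr5 (edgeR adjusted p = 0.267) and Erbb2 (0.172). In class 3 against class 11, Wnt5a was at -0.12 (edgeR adjusted p = 0.862), and Wnt4 (0.287) and Igfbp5 (0.175) were lost.

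In the Notch list, 6 genes were higher in progenitor-like nuclei, 3 in mature-like nuclei and 4 were not called, against 16.1% and 16.5% of all gene spans higher on these sides. The receptor genes Notch1 (log2 0.74) and Notch2 (0.42), the ligand gene Dll1 (1.29, 189 and 207 reads against 102 and 127) and the target genes Heyl (0.87), Hey2 (0.74) and Hey1 (0.51) were higher in progenitor-like nuclei. The ligand genes Jag1 (-0.66) and Dll4 (-0.58) and the target gene Hes1 (-0.36) were higher in mature-like nuclei. Rbpj, which encodes the DNA-binding partner of Notch, was not called (edgeR adjusted p = 0.645). The Dll4 call was lost without the library block (edgeR adjusted p = 0.0699), and DESeq2 lost Dll4 (adjusted p = 0.334), Hes1 (0.170), Hey1 (0.178) and Heyl (0.0713). Dll4 was also lost in class 7 against class 2 (edgeR adjusted p = 0.138), in deeper nuclei (0.174) and with basal-like sums in the fit (0.0522). With classes 3 and 11 alone none of the 4 target genes was called (edgeR adjusted p = 0.767 for Hes1, 0.609 for Hey1, 0.306 for Hey2 and 0.612 for Heyl), nor were Notch2 (0.0702) and Dll4 (0.412).

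Of 12 prolactin and STAT genes, 5 were higher in mature-like nuclei, 2 in progenitor-like nuclei and 5 were not called, with a median log2 fold change of 0.01. Over all gene spans, 16.5% were higher in mature-like and 16.1% in progenitor-like nuclei, so the progenitor-like count was near the background. Prlr (log2 -1.04), Stat5a (-0.80), the kinase gene Jak2 (-0.57), the feedback inhibitor gene Socs3 (-0.58) and Stat5b (-0.27) were higher in mature-like nuclei, and Elf5 and Stat3 (0.47) in progenitor-like nuclei. The Stat5a window overlaps those of Stat5b and Stat3, so some reads are shared and these calls are not independent. Stat5b differed by -0.09 in replicate 1 and -0.46 in replicate 2, and its call was lost without the block (edgeR adjusted p = 0.200) and in DESeq2 (adjusted p = 0.365). With classes 3 and 11 alone, Jak2 (edgeR adjusted p = 0.0793), Stat5a (0.132), Stat5b (0.535) and Socs3 (0.629) were lost. Of 16 innate defence genes, 12 were higher in progenitor-like nuclei, 1 in mature-like nuclei and 3 were not called, with a median log2 fold change of 0.91, beside the same 16.1% and 16.5% of all gene spans. Beside Lcn2, these were Lbp (2.27, the lipopolysaccharide-binding protein gene), Pigr (1.96, the transporter of secretory antibodies), Muc1 (1.66, a surface mucin), Cxcl1 (1.65, a neutrophil attractant), Pglyrp1 (1.64), Tlr2 (0.96), Ltf, Nfkbia (0.89), Tlr4 (0.84), Cd14 and Nfkb1 (0.57). With classes 3 and 11 alone, Pigr (edgeR adjusted p = 0.0609), Nfkb1 (0.178), Tlr2 (0.698) and Ltf were lost. Cxcl1 held 363 and 246 reads in progenitor-like sums against 127 and 140. Il33, for an alarmin cytokine, was the exception, with 352 and 486 reads in mature-like sums against 107 and 106 (log2 -1.47, SE 0.161, edgeR adjusted p = 3.05e-18).

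Of 26 genes of lineage transcription factors, 12 were higher in progenitor-like nuclei, 8 in mature-like nuclei and 6 were not called, where 32.5% of all gene spans were called, 16.1% and 16.5% by direction. Beside Sox10, Nfix, Elf5 and Ehf, the first group held Tfap2c (log2 1.23), Bcl11a (1.15), Foxc1 (0.97), Runx2 (0.92), Cebpb (0.81), Cebpd (0.69), Nfib (0.46) and Sox9 (0.33). The mature-like group held Pgr, Foxa1, Esr1, Tbx3, Spdef, Myb (-0.74), Tfap2b (-0.45) and Runx1 (-0.44). Members of a family could thus differ in direction, as Runx2, at 1168 and 1278 reads against 735 and 1115, did from Runx1, at 529 and 534 CPM against 717 and 727 CPM. The Sox9 call was lost without the block (edgeR adjusted p = 0.0924), in DESeq2 (adjusted p = 0.335), with basal-like sums in the fit (0.0590), in deeper nuclei (0.0627) and with classes 3 and 11 alone (0.60). The calls of Foxc1, Runx1, Myb and Tfap2b were also lost with classes 3 and 11 alone.

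Motif scores are chromVAR deviations, which say for each nucleus how much the reads in regions holding a motif exceed those expected. Of 427 motif columns, 388 of them distinct, 254 were called (59.5%) in limma on the means per library and side, 105 higher in progenitor-like nuclei (24.6%) and 149 in mature-like nuclei (34.9%). Foxa1 had the widest difference. Its mean score was -0.98 and -1.13 on the progenitor-like side and 3.82 and 4.36 on the mature-like side, a difference of -5.14 (SE 0.210, limma adjusted p = 0.00397). All 23 columns of Fox motifs, 16 of them distinct, were higher in mature-like nuclei, with differences from -5.14 to -0.84, and Foxc1 (-3.53), Foxc2 (-3.46, the same scores as Foxs1) and Foxa3 (-3.38) followed Foxa1. AP-1 motifs, bound by Fos and Jun proteins, came next. Fos stood at -0.36 and -0.76 against 2.45 and 3.13 (difference -3.35, SE 0.325, limma adjusted p = 0.0113), and Smarcc1 (-3.34), Bach1 (-2.93) and Fosb (-2.80) had similar values. Of 13 columns of the AP-1 family, 11 were higher in mature-like nuclei, and Atf3 and Jdp2 were not called. The 2 Gata columns were also higher there, Gata3 with a difference of -0.37 (limma adjusted p = 0.0189), although the Gata3 gene span was not called.

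Progenitor-like nuclei had the higher scores for some ETS motifs, led by Elf3 and Elf5. Elf3 stood at 1.71 and 1.56 against -0.76 and -0.92 (difference 2.47, SE 0.0382, limma adjusted p = 0.00388), and Elf5 at 1.79 and 1.60 against -0.63 and -0.78 (2.40, SE 0.0401). Ehf (1.87) and Elf1 (1.84) followed. Of 20 ETS columns, 7 were higher in progenitor-like nuclei (Ehf, Elf1, Elf2, Elf3, Elf4, Elf5 and Etv6), 8 in mature-like nuclei and 5 were not called, with the lowest value, -0.36, at Etv4. Nuclear factor I columns were higher in progenitor-like nuclei in 4 of 4 cases, led by Nfic (2.33, SE 0.0830) at 0.49 and 0.54 against -1.72 and -1.92, and so were 12 of 12 Sox columns, led by Sox4 (1.97). The counts were 4 of 4 for C/EBP motifs, led by Cebpg (1.82), 5 of 5 for NF-kB and Rel, 6 of 6 for Stat and 2 of 2 for Tead. Nfib (1.76) had the same scores as Nfia. Irf motifs were higher in 3 of 7 columns and not called in 4. Over all motif columns, 24.6% were higher in progenitor-like and 34.9% in mature-like nuclei, so the 8 of 20 ETS columns on the mature-like side were near the background. Motifs of 1 family are alike, so these columns are not independent, and a score names a sequence and not the protein bound to it.

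**Figure D3:**
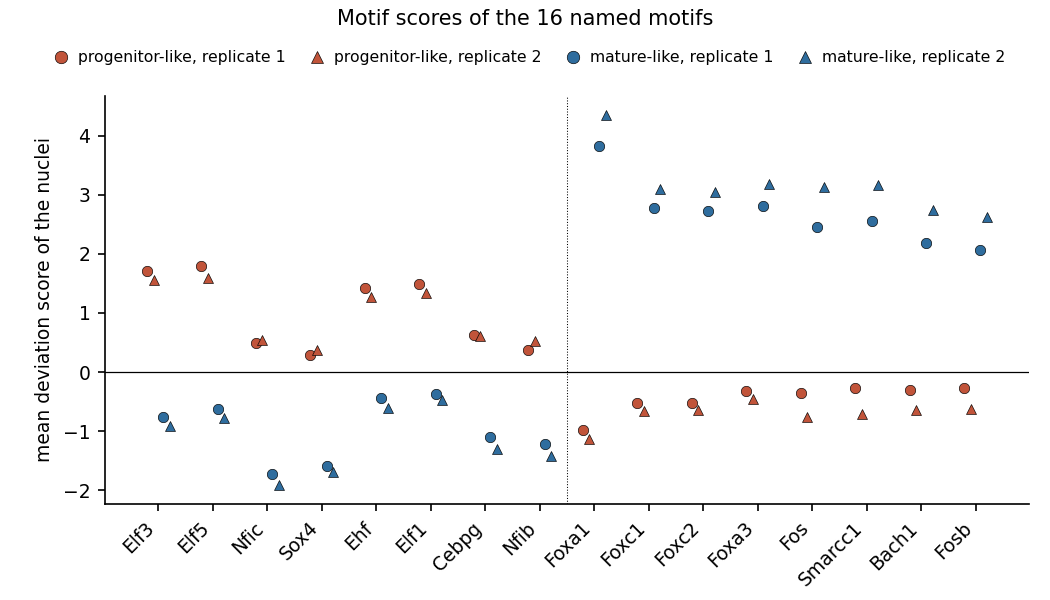
Mean deviation score of the nuclei for the 16 named motifs, 1 point per library and side (circles, replicate 1; triangles, replicate 2). The 8 motifs left of the dotted line are higher in progenitor-like nuclei and the 8 on the right in mature-like nuclei, with the widest gap at Foxa1, from -1.13 to 4.36.

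From the list of 51 motifs, 45 had a column, and 20 were higher in progenitor-like nuclei, 14 in mature-like nuclei and 11 not called, beside 24.6% and 34.9% of all motif columns. Esr1 was higher in mature-like nuclei (difference -0.52), as were Esrra (-0.45) and Tbx3 (-0.17). The Tbx3 motif was lost in class 7 against class 2 (limma adjusted p = 0.175). Stat5a (0.39), Stat5b (0.45) and Pgr (0.35) were higher in progenitor-like nuclei, against the direction of their gene spans. Ctcf, a motif of chromatin architecture, was not called at a difference of -0.43 (limma adjusted p = 0.127), which is wider than those of several called motifs. Among 31 listed factors with both a gene span and a motif column tested, 14 were called in the same direction on both measures. Another 5 were called in opposite directions, and 12 were not called on both. Over all features, 32.5% of gene spans and 59.5% of motif columns were called. These factors were chosen with earlier results known, so the split does not measure agreement over all factors. The same direction held for Foxa1, Esr1, Tbx3, Elf5, Ehf, Sox9, Sox10, Nfib, Nfix, Cebpb, Cebpd, Bcl11a, Stat3 and Nfkb1, of which Cebpb and Cebpd share 1 score column. The opposite cases were Pgr, Runx2, Foxc1, Stat5a and Stat5b, of which the Runx2 motif was lost in class 3 against class 11 (limma adjusted p = 0.217). The gene spans of Stat5a (edgeR adjusted p = 0.132), Foxc1 (0.155) and Stat5b (0.535) were lost there as well, and that of Stat5b in 6 other alternatives. The Stat5a window also shares reads with those of Stat5b and Stat3, so these gene spans are not independent cases. Foxc1 stood out among these, with the gene span higher in progenitor-like nuclei (0.97) and the motif score higher in mature-like nuclei (-3.53). Elf3 had a called motif (2.47) and a gene span at log2 0.02.

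Around the genes that define the sides, distal regions within 50000 bases of the gene span differed in how far they were of 1 direction. At Kit, 10 of 11 tested regions were higher in progenitor-like nuclei and 1 in mature-like nuclei. At Sox10 the numbers were 11 and 1 of 18, at Elf5 5 and 0 of 11, at Cd14 4 and 1 of 7, at Ltf 3 and 1 of 11 and at Hey1 2 and 0 of 6. At Foxa1, 15 of 16 regions were higher in mature-like nuclei and none in progenitor-like nuclei. At Pgr the mature-like count was 10 of 12, at Esr1 8 of 17 with 1 higher in progenitor-like nuclei, at Prlr 5 of 14 with 1, at Areg 4 of 7 with 0, and at Cited1 1 of 2. Over the 10657 genes with at least 5 tested regions in reach, the median share of regions was 14.3% higher in progenitor-like and 18.2% higher in mature-like nuclei. Aldh1a3 and Wnt4 were mixed. Aldh1a3, a progenitor marker, had 4 regions higher in progenitor-like and 6 in mature-like nuclei of 13, and Wnt4 had 2 and 3 of 11. None of 5 regions at Tnfsf11 was called, although its gene span was, and Csn3 had no tested region in reach.

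**Figure D4:**
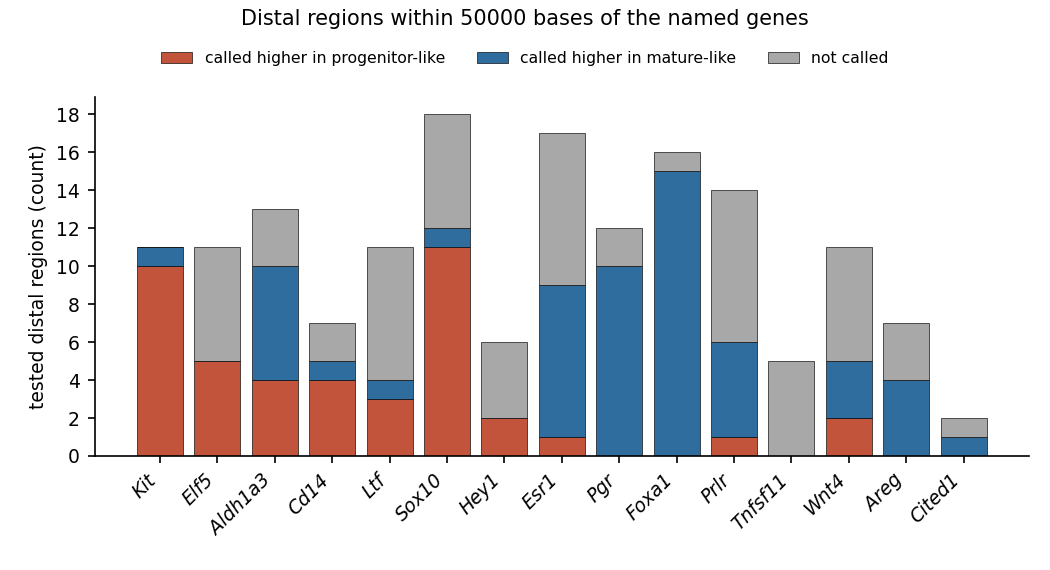
Number of tested distal regions within 50000 bases of each gene, stacked by call. Kit and Foxa1 are nearly all of 1 colour, with 10 of 11 regions higher in progenitor-like and 15 of 16 higher in mature-like nuclei, while Aldh1a3 holds both.

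The leading region of each locus, the called region with the smallest p, shows the contrast in reads. At Kit it lay within the gene on chromosome 5 from 75640180 to 75641179, with 56 and 59 progenitor-like reads against 0 and 4 (edgeR adjusted p = 1.95e-06). At Elf5 it lay 21299 bases outside the gene on chromosome 2 from 103389800 to 103390799, with 109 and 117 reads against 0 and 2 (edgeR adjusted p = 4.24e-09). The choice by p makes a wider contrast than over the gene span likely beforehand. The median log2 fold change of the 11 tested regions at Elf5 was 1.22. At Sox10 a region 47938 bases away, on chromosome 15 from 79212428, held 155 and 155 reads against 0 and 7, and it is nearer to Pick1. At Ltf a region 19181 bases away, nearer to Rtp3, held 102 and 138 against 0 and 8. At Foxa1, the region on chromosome 12 from 57511210 to 57512209, 28419 bases from the gene, held 51 and 111 mature-like reads and no progenitor-like read. Against 3 reads it was 35.8-fold lower there, which is not a firm lower limit, since the ends of a fragment count as separate reads. In DESeq2 this region was not called (adjusted p = 0.100). At Areg a region 1029 bases from the gene on chromosome 5 from 91149461 held 102 and 91 mature-like reads against 0 and 2. At Esr1 a region within the gene on chromosome 10 from 4624651 held 132 and 176 against 8 and 4 (log2 -4.08, SE 0.398, edgeR adjusted p = 1.10e-07). This SE lies slightly below counting error. At Pgr a region within the gene held 35 and 59 mature-like reads against 2 and 0. Where 1 sum holds no read, the fitted values of the libraries differ by several log2 units, so reads are given in place of folds.

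Of the promoters listed for these loci, the authors' region at Kit was called as above, and those at Sox10 (42 and 48 reads against 8 and 0), Ltf (18 and 20 against 6 and 3) and Hey1 (165 and 165 against 138 and 169, log2 0.52) were higher in progenitor-like nuclei. Those at Areg (108 and 151 mature-like reads against 27 and 33, log2 -1.69), Cited1 (129 and 172 against 46 and 60, log2 -1.09) and Esr1 (42 and 92 against 17 and 31, log2 -1.03) were higher in mature-like nuclei. Esr1, Ltf and Hey1 were lost in DESeq2 with adjusted p of 0.382, 0.128 and 0.428, as was Sox10 with 0.275. In class 3 against class 11, the promoters of Cited1 (edgeR adjusted p = 0.829), Hey1 (0.892) and Esr1 (0.653) were lost. That of Esr1 was also lost in class 7 against class 2 (0.103), with total reads (0.0520), with read midpoints (0.301, log2 -0.65) and with basal-like sums in the fit (0.0706). With basal-like sums the promoters of Ltf (0.0651) and Hey1 (0.0734) were lost too, and in deeper nuclei that of Hey1 (0.162). The promoters of Wnt4 (74 and 51 reads against 80 and 87) and Tnfsf11 (0 and 10 against 10 and 32) were not called, with edgeR adjusted p of 0.964 and 0.103, and that of Pgr had too few reads. The authors' deposited table of co-accessibility scores, over all nuclei, how strongly the openness of a pair of regions goes together. The score is not a share of nuclei. The leading region and the promoter scored 0.547 at Sox10, 0.378 at Areg, 0.337 at Kit, 0.186 at Cited1 and 0.164 at Ltf. It was 0.0587 at Hey1, 0.0365 at Wnt4, 0.0353 at Esr1 and 0 at Pgr in the authors' deposited table. That score was computed over nuclei that include those compared here.

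Each side joins 2 classes, and the class pairs gave the comparison again in nuclei not shared between them. Class 7 against class 2 and class 3 against class 11 had 22298 distal regions tested in both, of which 9582 and 6289 were called and 5603 in both, all of these with the same sign. That is 58.5% of the first and 89.1% of the second set of calls. Of the 9582 regions, 97.4% had the same sign in the other pair, against 81.6% of all regions tested in both. For promoters 1243 and 283 were called and 241 in both, for gene spans 4873 and 2143 and 1818 in both, and for motifs 248 and 232 and 207 in both, again without a change of sign among those called in both. The class pairs share libraries, and their classes were formed by the authors from these same nuclei. The pair of classes 3 and 11 has fewer reads. Elf5 scores were 1.82 and 1.78 in classes 3 and 7 of replicate 1 and 1.47 and 1.69 in replicate 2, and Foxa1 scores 3.70 and 4.30 in classes 2 and 11 of replicate 1 and 4.20 and 4.66 in replicate 2. For these 2 motifs the classes of a side differed by less than the sides did. Both were among the motifs named for the widest difference between the sides, which makes that outcome likely beforehand. The class pairs differed more at some features, as at the Lcn2 promoter (promoter region 2_32387383), with a log2 fold change of 7.07 in class 7 against class 2 and 3.38 in class 3 against class 11.

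The called distal regions were then read in other nuclei, as a description without a test. Regions higher in progenitor-like nuclei took 40.4% and 40.2% of the reads in tested regions on that side and 11.1% and 11.1% in mature-like nuclei. In adult basal-like nuclei they took 34.8% and 34.6%, in fetal class 9 34.7% and 35.1%, in fetal class 4 33.3% and 33.0% and in fetal class 5 37.1% and 37.9%. Regions higher in mature-like nuclei took 36.7% and 37.2% there, 8.29% and 8.18% in progenitor-like nuclei, 10.8% and 10.8% in adult basal-like nuclei, and 7.78% to 11.5% in those fetal classes. Adult basal-like nuclei and these 3 fetal classes, the fetal classes read here, thus stood nearer to the progenitor-like than to the mature-like values for both sets. Adult class 10 lay between, at 24.7% and 23.8% for the first set and 23.5% and 24.7% for the second. Of the regions higher in progenitor-like nuclei 52.7% overlapped a RefSeq gene span, against 55.3% of those higher in mature-like nuclei and 56.9% of those not called.

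**Figure D5:**
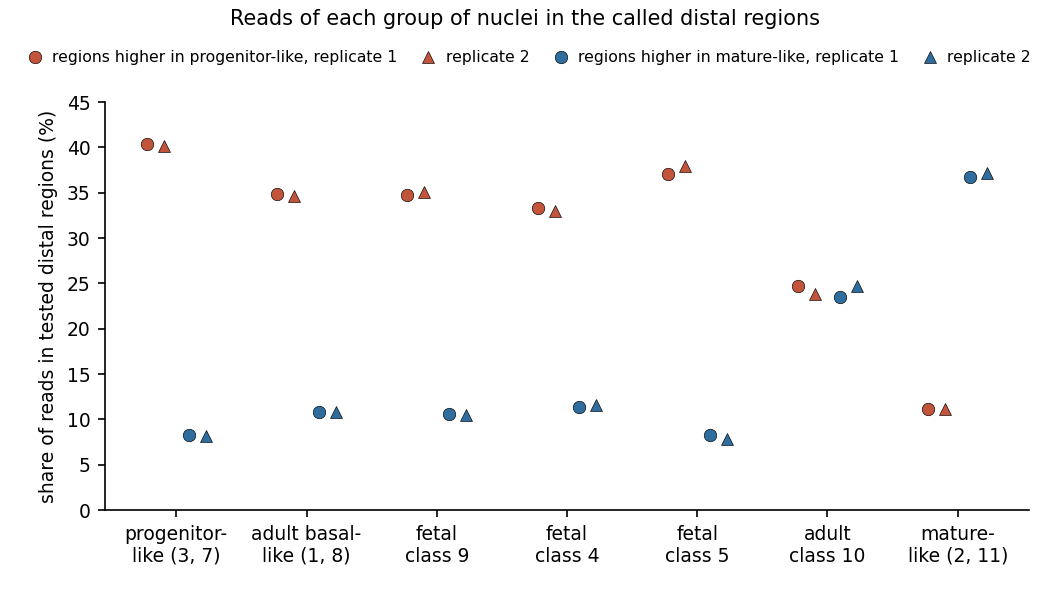
Share of reads in tested distal regions, in percent, that fell in regions called higher in progenitor-like (red) or in mature-like nuclei (blue), 1 point per library (circles, replicate 1; triangles, replicate 2). Basal-like and fetal classes 9, 4 and 5 lie between 33.0% and 37.9% for the first set, close to the progenitor-like 40.4%, and class 10 holds similar shares of both.

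Of 10 basal markers, 5 were called higher on the progenitor-like side, none in mature-like nuclei and 5 were not called, against 16.1% and 16.5% of all gene spans. Krt14, a keratin of basal cells, held 65 and 43 reads against 18 and 24 (log2 1.82, SE 0.407, edgeR adjusted p = 5.61e-05), and Trp63, the basal master factor gene, 301 and 362 against 167 and 265 (log2 1.13, SE 0.145). Acta2 (0.90), Oxtr (0.77) and Myh11 (0.64) were the others, and Krt5 was not called, at 20 and 8 reads against 4 and 12. DESeq2 lost Acta2 (adjusted p = 0.189) and Myh11 (0.223). Acta2 and Myh11 were also lost in class 7 against class 2 (edgeR adjusted p = 0.0776 and 0.0853), and in class 3 against class 11 (0.147 and 0.311), where Oxtr was lost too (0.0667). The summed level of the 10 genes was 370 and 391 CPM in progenitor-like, 246 and 253 CPM in mature-like and 1605 and 1473 CPM in adult basal-like nuclei, and no marker was at 0. A read over Krt14 was found in 3.26% and 2.48% of progenitor-like nuclei, 0.898% and 0.931% of mature-like nuclei and 17.0% and 12.9% of basal-like nuclei. The Trp63 motif score was not called (difference 0.11, limma adjusted p = 0.214). The part of basal cells in the progenitor-like values was not tested. Stromal, endothelial and immune markers gave 1 call of 6 (Pdgfra, edgeR adjusted p = 0.0490), 1 of 3 (Pecam1, log2 0.85) and 0 of 6 in edgeR, where 32.5% of all gene spans were called. The Pdgfra call was lost in all 11 alternatives with a test, at adjusted p from 0.0510 to 0.450. Over the 7, 4 and 6 listed markers the summed levels were 127 and 128 against 120 and 123 CPM, 116 and 123 against 103 and 85.1 CPM, and 92.4 and 94.0 against 94.7 and 89.1 CPM.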

How the data were processed

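Per the labels, nuclei of 2 adult and 2 fetal libraries were profiled by single-nucleus ATAC-seq. The submitters' processing notes name mm10, Bowtie2, MACS2 and bedtools, without versions or roles. The authors deposited reads with barcodes, 145453 distal and 19204 distinct promoter regions of 1000 bases, and a table with a class, a read count and chromVAR motif scores for each nucleus; the clustering and the filter on nuclei are not given in the sources used here. The deposited read count per nucleus equalled the barcode's reads in the library for every nucleus. The co-accessibility score is the authors' own, from a deposited table whose settings are not given in the sources used here, and the deposited gene scores were not used.

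Reads overlapping a region or a RefSeq gene span (GRCm38.p6) with 2000 bases either side by at least 1 base were summed per library and side. Gene spans and nearest genes were those of protein-coding genes with a unique symbol, so other RefSeq genes were not searched. Both ends of a fragment are listed as separate reads, so a fold against 3 reads is not a firm limit. Intervals for shares of nuclei cover counting error only. Features averaging 10 or more reads over the 4 sums were tested with edgeR 4.0.16 (quasi-likelihood, TMM, library as block) in R 4.3.3, and mean motif scores with limma 3.58.1, at a Benjamini-Hochberg adjusted p of 0.05. The SE is the log2 fold change over the root of the F statistic, and lies below counting error at some features with few reads. CPM was adjusted by TMM for tested features, and not for summed markers. Python 3.11.15 was used for counting. The members and the gene and motif lists were chosen with earlier results of these data known. The features named were the 6 regions and 15 genes with the smallest p in each direction (mean of at least 50 reads, sides not overlapping), the 8 motifs with the widest difference, the leading distal region and the promoters of 16 loci, and the listed genes and motifs. The pairing comes from both sides being nuclei of 1 library. The correlation of the deviations of same-library sums was 0.0710 over distal regions, 0.0914 over promoters, 0.305 over gene spans and -0.447 over motifs. The libraries are called biological replicates, and p-values rest on a spread between these 2 libraries that is shared over features. The prior degrees of freedom, the weight of that shared spread, were infinite for promoters and gene spans. A feature's own spread between libraries thus had no weight in those p-values. The prior was 20.3 for distal regions and 1.82 for motifs, beside 1 residual degree of freedom. On simulated data, the fit recovered 48 of 100 distal regions, 87 of 100 promoters and 98 of 100 gene spans changed 4-fold, and 7, 54 and 76 of 100 changed 2-fold, with 3, 3 and 8 false calls. For motifs it recovered 28 of 30 differences of 0.5, with 2 false calls. Only a small part of the features was changed, and simulated regions and genes had exactly the spread of the trend over features. Simulated motifs all had 1 common spread, while the spreads of real motifs differ. On real data 44.6% of distal regions were called, so these rates may not hold for the real fits. Alternatives were no block, DESeq2 1.42.0, other scalings and read minimums, read midpoints, basal-like sums in the fit, single class pairs, deeper nuclei, motif medians and, added after seeing the data, nuclei with a read in place of reads.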

Additional observations from a re-analysis of the deposited data

How the results depend on the processing

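No called feature that is named changed direction under any alternative in which it was tested. Call and direction held under all of those for 72 of 107 gene spans, 36 of 39 motifs, 25 of 26 distal regions and 13 of 18 promoter regions. Requiring a mean of 50 reads left fewer features, with 5401 of 10683 distal and 1088 of 9296 promoter regions called. Class 7 against class 2, with fewer nuclei, gave 16862 distal and 1556 promoter regions, and class 3 against class 11 gave 6536 distal regions, 292 promoter regions and 2149 gene spans. DESeq2 called 778 promoter regions and 2390 gene spans, and the cause was not tested. Nuclei at or above the median read count gave 1546 promoter regions, from fewer nuclei. Nuclei with a read in place of reads, an alternative chosen after seeing the data, gave 17662 distal regions of 32131 tested. Scaling by total reads raised the progenitor-like part of the promoter calls from 53.0% to 61.9%, with 1477 higher and 909 lower. Without the replicate block, in an unpaired fit, 30549 distal regions, 2247 promoter regions, 3974 gene spans and 284 motifs were called, and the calls of Ltf, Sox9, Dll4, Stat5b, Myh11 and Pdgfra were lost. Values that turned direction were not called to begin with. The Wnt4 promoter (promoter region 4_137276658) stood at 0.044 with total reads and 0.036 in class 7 against class 2, and gene span Calca at 0.32 in class 3 against class 11. Leaving out a library leaves no residual degree of freedom, so it gave log2 values with no test. Distal regions held few reads each, and how far depth limits the calls there was not tested.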
